A study of Mus musculus with 34 samples.

Results

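Axon guidance ligands and receptors were followed across all RNA-seq libraries of CAD cells, a mouse catecholaminergic neuronal line. The genes were chosen by name: Eph receptors, ephrins, semaphorins of the vertebrate classes, plexins, neuropilins, Slits, Robos, netrins, Dcc and Unc5 receptors. Names matched 68 genes, and 53 of them had at least 10 reads over 28 libraries, out of 37310 gene identifiers, 32620 of which carry a symbol. The 53 genes are 17 semaphorins, 10 plexins and neuropilins, 8 ephrins, 9 Eph receptors, 4 Slits and Robos, and 5 netrins and Unc5 receptors.

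The study followed CAD cells that lack miR-138 by label, and wild-type (WT) cells, as serum was taken away, a step used with this line to bring about differentiation. In the first experiment, cells labelled mir-138 DKO (double knockout) and WT cells were each sequenced at 1 day without serum and in medium with 10% serum, with 2 libraries in each of the 4 groups. In the second, WT cells were sequenced at 4 days without serum and in serum, with 3 libraries each. In the third, all cells were DKO-labelled and received a miR-138 mimic, a miR-137 mimic or pUC19 plasmid DNA, each at 2 days without serum and in serum, and 1 more group in serum names no transfection, with 2 libraries in each of the 7 groups. Cells took up mimic at 3 nM, and serum-free medium followed after 48 h. How many knockout lines or clones were used, and what the 2 in the names DKO_2 and WT_2 marks, is not stated. The genotype field of the WT libraries at 4 days reads mir-138 DKO, whereas title, design text and protocol make them WT, and they are treated as WT here. The 6 small RNA libraries of the series were not used.

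Guidance cues are secreted or membrane-bound proteins that attract or repel growing axons, and each family is read by its own receptors. Semaphorins signal through plexins, the secreted class 3 members with neuropilins as co-receptors. Ephrins signal through Eph tyrosine kinases between touching cells, Slits through Robo receptors, and netrins through Dcc, which mediates attraction, and Unc5 receptors, which mediate repulsion.

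The miRNAs supplied as mimics are shown with the seed, bases 2 to 8, in capitals, because the seed is the stretch that pairs with target RNAs and the mimics differ in it. The mature sequences are from RefSeq (GRCm38.p6). Mature miR-138 is encoded by Mir138-1 on chromosome 9 and Mir138-2 on chromosome 8, and miR-137 by Mir137 on chromosome 3.
mmu-miR-138-5p: aGCUGGUGuugugaaucaggccg
mmu-miR-137-3p: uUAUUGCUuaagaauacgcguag
The seeds GCUGGUG and UAUUGCU are different, so the mimics do not form a seed family.

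Libraries of the first experiment held 22359075 to 41505181 reads assigned to genes. Those of the second held 19900317 to 28631969, and those of the third 12740836 to 25582125. PolyA RNA-seq reads were taken over the hairpin genes of miR-138, the miRNA named in the knockout label. In serum Mir138-1 stood at 5.93 and 7.73 CPM in DKO-labelled libraries and 0.558 and 0.686 CPM in WT libraries. This is the reverse of the order the labels give, and Mir138-2 had 0 reads throughout. The stretch deleted in the cells is not given in the sources used here, so these reads do not test the deletion, and the libraries are called DKO-labelled throughout. Summed levels of 9 neuron and catecholamine cell markers were 579 to 618 CPM in DKO-labelled libraries and 2475 to 2559 CPM in WT libraries in serum. Of these markers the neurofilament gene Nefm was at or near 0 in all groups, and Th, the tyrosine hydroxylase gene that defines catecholamine cells, averaged 0 CPM in DKO-labelled and 2.13 CPM in WT libraries in serum. Summed fibroblast markers, with Col3a1 at 0, were low but moved with the groups, and their part in the guidance genes was not tested. They reached 8.15 to 8.80 CPM in DKO-labelled libraries in serum, mostly Col1a2 and Dcn. In WT libraries in serum they reached 1.46 to 1.49 CPM, mostly Col1a1. In WT cells of the second experiment they reached 7.31 to 8.98 CPM at 4 days without serum and 0.559 to 1.55 CPM in serum. At 4 days Col1a1 averaged 4.82 CPM, Col1a2 1.79 CPM and Dcn 0.227 CPM. In the third experiment Dcn had the highest mean of these markers in each group. With the miR-138 mimic the fibroblast markers summed to 37.1 to 38.1 CPM at 2 days and 9.97 to 12.2 CPM in serum. With miR-137 they summed to 14.6 to 15.4 CPM at 2 days and 4.07 to 4.79 CPM in serum, and with pUC19 they summed to 26.2 to 28.2 CPM at 2 days and 7.07 to 7.43 CPM in serum. Glial markers summed to no more than 6.03 CPM with Sox10 at 0, endothelial markers to 10.3 to 40.4 CPM, nearly all from Pecam1, and blood markers to no more than 2.63 CPM with Ptprc at 0.

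Levels are CPM, a gene's reads over all reads in genes kept after a filter on low counts, set to one common total. They are scaled within each experiment, so that values from separate experiments are set side by side without a test. Differences are log2 fold changes, some with their standard error (SE), and a gene is called where the Benjamini-Hochberg adjusted p of edgeR's quasi-likelihood test, over all genes tested, is under 0.05. Whether replicate libraries began as separate cultures is not stated, and the p-values therefore reflect only how much these libraries vary, which may be technical. In bulk RNA, fewer cells of a type and less RNA per cell cannot be told apart.

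Most families were represented, but several partners were nearly absent. Over all 28 libraries Robo1 had 73 reads, Robo2 had 6 and Robo3 and Robo4 had 0, whereas Slit1, Slit2 and Slit3 had 5394, 110572 and 263964 reads. Dcc had 2 reads, Unc5d 1 and Ntn4 2, and netrin 1 (Ntn1) had 199, whereas Unc5a, Unc5b and Unc5c had 24370, 160688 and 118114. Among class 3 semaphorins, Sema3a had 0 reads, Sema3d 1 and Sema3e 4, whereas the co-receptors Nrp1 and Nrp2 had 176907 and 68871. The other genes under 10 reads were Epha3 with 8, Epha5 with 2, Epha6 with 8, Epha7 with 5, Ephb1 with 5 and Plxna2 with 1, and the members nearest the limit were Epha2 with 14 and Plxnb3 with 16. After the filter on low counts 44 of the 53 members were tested in the first and second experiments and 43 in the third, and no untested member averaged over 0.981 CPM in any group.

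In serum, DKO-labelled cells had higher levels of both neuropilins, Slit3, Plxnd1, Sema3f, Epha4, Ephb4 and Efna4 than WT cells. They had lower levels of Unc5a, Unc5c, Slit1, Slit2, Plxna1, Plxnb1, 3 Eph receptors, 3 ephrins and 9 semaphorins. Of 44 members tested, 29 were called, 8 higher and 21 lower. Over all 13630 genes tested 40.7% were called, 19.2% higher and 21.5% lower. The median log2 fold change of the members was -0.40, against -0.01 over all genes. At 1 day without serum 24 of 44 members were called, 9 higher and 15 lower, where 44.9% of all genes were called, 21.9% higher and 23.0% lower. Called the same way in serum and at 1 day were 21 of 44 members, 7 higher and 14 lower. Over all genes these shares were 28.3%, 12.6% and 15.7%. Several of the lower calls were not stable. Slit1 at 1 day did not pass with DESeq2 (log2 fold change -2.50, adjusted p = 0.0945). Sema4c at 1 day did not pass with unstranded counts (-0.20 with adjusted p = 0.0535). Without WT library 1 or 2 or DKO-labelled library 2, Sema4c at 1 day was at -0.18, -0.27 and -0.11 and did not pass. Efna3 in serum did not pass without WT library 1 (-0.93). Those of Efna2, Epha10, Plxnb1, Sema4a and Sema4g are given below. The DKO-labelled and WT libraries also stood apart in the neuron markers above, and at 1 day these summed to 491.6 to 492.5 CPM in DKO-labelled cells and 4827 to 4920 CPM in WT cells, whose part in the guidance genes was not tested.

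Among netrin receptors, Unc5a changed far more than its relatives. In serum it stood at 1.72 and 1.17 CPM in DKO-labelled libraries and 78.8 and 78.0 CPM in WT libraries, a log2 fold change of -5.72 ± 0.15 (SE; edgeR's quasi-likelihood test, adjusted p = 7.61e-13). At 1 day it stood at 2.85 and 3.61 CPM in DKO-labelled and 114 and 105 CPM in WT libraries, a log2 fold change of -5.08 (adjusted p = 9.95e-13). The groups were far apart at both times. In the other experiments Unc5a kept the same order by label, at 0.704 to 2.24 CPM in all 14 DKO-labelled libraries of the third experiment and 81.6 to 104 CPM in all 6 WT libraries of the second. Unc5b, a receptor also known from blood vessels, stood at 291 and 284 CPM in DKO-labelled and 311 and 315 CPM in WT libraries in serum and did not pass the test (log2 fold change -0.12, adjusted p = 0.161). Unc5c, read at 133 and 131 CPM in DKO-labelled and 166 and 147 CPM in WT libraries in serum, was lower by the test (log2 fold change -0.24, adjusted p = 0.0149), but not without the first WT serum library (-0.15 with adjusted p = 0.222).

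Both neuropilins were higher in DKO-labelled cells. Nrp2, the co-receptor for Sema3f, had 211 and 171 CPM in DKO-labelled and 43.2 and 40.8 CPM in WT libraries in serum. It had 134 and 136 CPM in DKO-labelled against 27.0 and 27.1 CPM in WT libraries at 1 day (log2 fold changes 2.19 ± 0.09 and 2.32 ± 0.10, SE; adjusted p = 1.92e-10 and 1.39e-10). Nrp1, the co-receptor for Sema3a and for vascular endothelial growth factor, had 247 and 271 CPM in DKO-labelled and 112 and 111 CPM in WT libraries in serum. It had 266 and 263 CPM in DKO-labelled against 160.5 and 159 CPM in WT libraries at 1 day (log2 fold changes 1.21 and 0.73; adjusted p = 2.38e-09 and 4.63e-07). In all 4 contrasts the 2 DKO-labelled libraries lay above both WT libraries. Plxnd1, a plexin that binds Sema3e directly, had 268 and 241 CPM in DKO-labelled and 169 and 164 CPM in WT libraries in serum. It had 175 and 169.97 CPM in DKO-labelled against 66.1 and 57.7 CPM in WT libraries at 1 day (log2 fold changes 0.61 and 1.48; adjusted p = 1.73e-05 and 2.16e-09). Plxna1, a receptor of class 6 semaphorins and partner of neuropilins, was the reverse in serum, with 153 and 118 CPM in DKO-labelled and 191 and 188 CPM in WT libraries (log2 fold change -0.48, adjusted p = 0.00163). Of the 9 plexins and neuropilins tested, 3 were higher and 2 lower in serum, and 4 higher and 1 lower at 1 day. Among all genes 19.2% were higher and 21.5% lower in serum, and 21.9% and 23.0% at 1 day. Without WT serum library 1 the lower call of Plxnb1 in serum did not pass (log2 fold change -0.30).

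Of 14 semaphorins tested, 1 was higher and 9 lower in DKO-labelled cells in serum, where 21.5% of all genes were lower, and 0 were higher and 5 lower at 1 day, where 23.0% were lower. Of the 9 lower calls in serum, 5 did not pass without 1 library. Without WT serum library 1 these were Sema3g (-0.92 with adjusted p = 0.248) and Sema6b (-0.48 with adjusted p = 0.0889). Without WT serum library 2 they were Sema3g (-1.39 with adjusted p = 0.0724), Sema4a (-0.69 with adjusted p = 0.226), Sema4b (-0.29 with adjusted p = 0.0614) and Sema4d (-0.39 with adjusted p = 0.0689). Sema3g also did not pass without DKO-labelled serum library 1 (-0.88 with adjusted p = 0.138) or with DESeq2 (-1.16 with adjusted p = 0.0543), nor Sema4a without DKO-labelled serum library 2 (-0.82 with adjusted p = 0.0739). The higher one, Sema3f, a secreted repellent, stood at 45.9 and 39.6 CPM in DKO-labelled and 24.6 and 21.4 CPM in WT libraries in serum (log2 fold change 0.90, adjusted p = 2.95e-05). At 1 day its levels were 32.2 and 29.3 CPM in DKO-labelled and 27.1 and 24.6 CPM in WT libraries, and the difference did not pass (log2 fold change 0.25, adjusted p = 0.105). The membrane-bound Sema4g stood at 8.97 and 4.95 CPM in DKO-labelled and 17.5 and 14.0 CPM in WT libraries in serum (log2 fold change -1.15, adjusted p = 0.000642), with DKO-labelled replicates almost as far from each other as from WT. Its difference at 1 day (log2 fold change -0.71, adjusted p = 0.0108) did not pass without WT library 1 (-0.62 with adjusted p = 0.0856), DKO-labelled library 1 (-0.67 with adjusted p = 0.0814) or DKO-labelled library 2 (-0.73 with adjusted p = 0.0603). Sema6d, a ligand of Plxna1, was lower at both times, with 29.2 and 22.4 CPM in DKO-labelled and 45.1 and 44.0 CPM in WT libraries in serum (log2 fold change -0.78, adjusted p = 0.000348). Its levels were 33.5 and 40.6 CPM in DKO-labelled against 64.5 and 53.9 CPM in WT libraries at 1 day (log2 fold change -0.67, adjusted p = 0.000848).

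Ephrins and Eph receptors split by gene. Efna4, a ligand held by a lipid anchor, stood at 10.1 and 9.79 CPM in DKO-labelled and 2.40 and 2.63 CPM in WT libraries in serum (log2 fold change 1.98, adjusted p = 1.42e-06). Efnb1, a transmembrane ephrin, stood at 5.10 and 3.35 CPM in DKO-labelled and 12.1 and 11.3 CPM in WT libraries in serum (log2 fold change -1.46, adjusted p = 8.59e-05). At 1 day Efnb1 was at 2.34 and 2.56 CPM in DKO-labelled against 10.4 and 10.9 CPM in WT libraries (log2 fold change -2.11, adjusted p = 3.53e-06). The groups did not overlap for either ephrin. Efna2, with 9.61 and 10.97 CPM in DKO-labelled and 16.1 and 14.7 CPM in WT libraries in serum (log2 fold change -0.58, adjusted p = 0.0108), lost its call there without the first WT library (-0.51 with adjusted p = 0.0861). Among receptors, Epha4, which binds ephrins of both classes, stood at 10.9 and 10.9 CPM in DKO-labelled and 3.96 and 4.12 CPM in WT libraries in serum (log2 fold change 1.42, adjusted p = 4e-05). At 1 day Epha4 was at 13.6 and 15.8 CPM in DKO-labelled against 4.30 and 5.81 CPM in WT libraries (log2 fold change 1.53, adjusted p = 1.38e-05). Ephb4, the Efnb2 receptor, was higher by a smaller margin, with 151 and 128 CPM in DKO-labelled and 82.6 and 76.3 CPM in WT libraries in serum (log2 fold change 0.81, adjusted p = 3.56e-06). Epha8 was close to absent from DKO-labelled cells, with 3 reads in both serum libraries together, against 165 in WT, a ratio of WT over DKO-labelled of 64.8 after scaling (exact 95% counting interval 21.8 to 317, for counting error only). Ephb2, a receptor of B-class ephrins, stood at 0.392 and 0.534 CPM in DKO-labelled and 3.13 and 3.87 CPM in WT libraries in serum (log2 fold change -2.93, adjusted p = 2.57e-05). The Eph receptors gave 2 higher and 3 lower of 6 tested at both times. Over all genes 19.2% were higher and 21.5% lower in serum, and 21.9% and 23.0% at 1 day. In serum the lower call of Epha10 did not pass without either WT library (log2 fold changes -2.44 and -2.22).

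The 3 Slits, secreted repellents, did not move together. Slit3 stood at 659.6 and 561 CPM in DKO-labelled and 302 and 296 CPM in WT libraries in serum. Its level was 582 and 535 CPM in DKO-labelled against 206 and 197 CPM in WT libraries at 1 day (log2 fold changes 1.03 ± 0.08 and 1.47 ± 0.08, SE; adjusted p = 6.58e-08 and 1.33e-09). Slit2 was lower, with 136.7 and 114 CPM in DKO-labelled and 179.8 and 173 CPM in WT libraries in serum and 136.5 and 132 CPM in DKO-labelled against 214 and 212 CPM in WT libraries at 1 day (log2 fold change -0.49 (adjusted p = 0.000224) and -0.67 (adjusted p = 9.95e-06)). Slit1, at 0.564 and 0 CPM in DKO-labelled and 4.19 and 5.49 CPM in WT libraries in serum, was lower too (log2 fold change -3.91, adjusted p = 0.000131). For each Slit in serum, both DKO-labelled libraries lay on one side of both WT libraries.

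**Figure D1:**
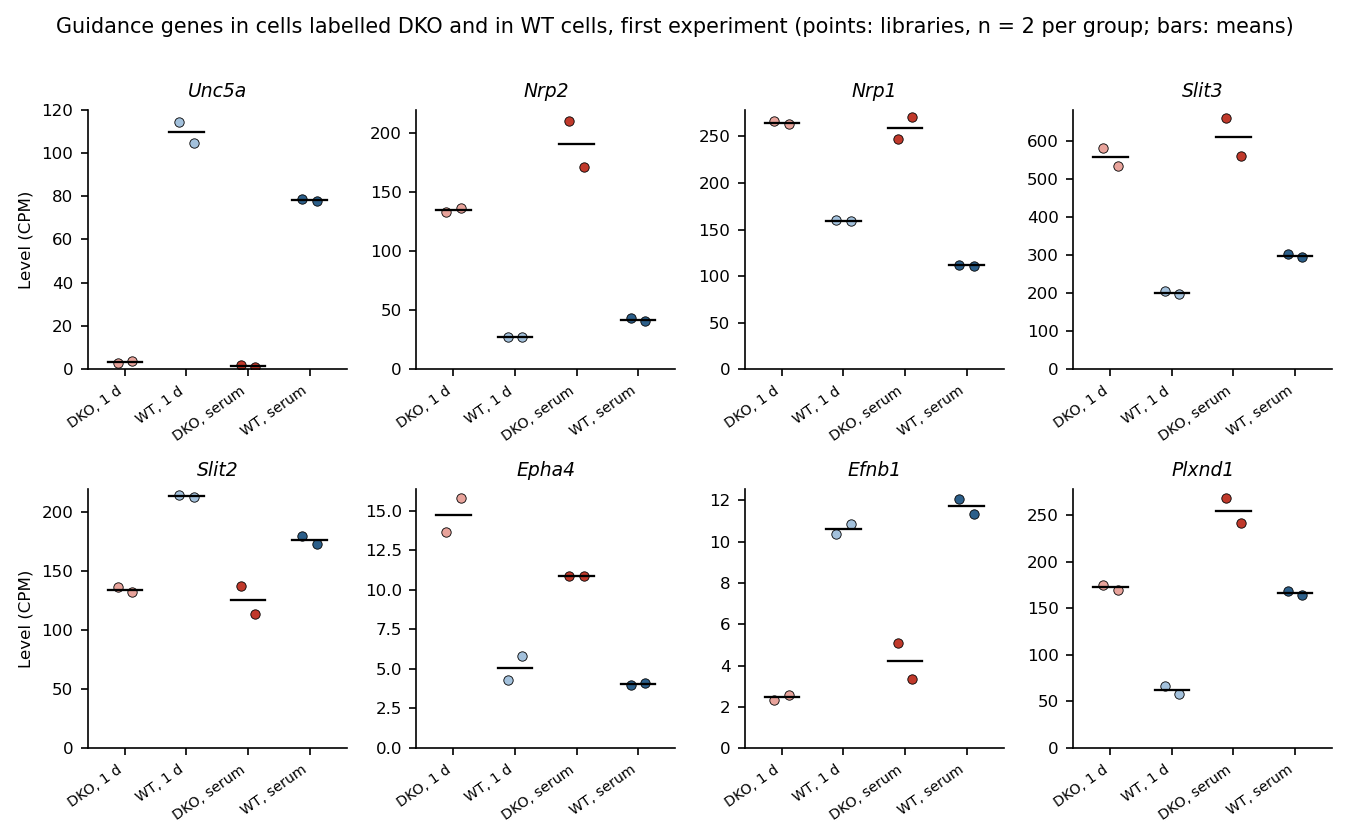
Levels of 8 guidance genes (y axis, CPM from 0) in the first experiment; points are libraries, 2 in each group, and bars are means, with DKO-labelled cells left of WT cells, at 1 day without serum and then in serum. Unc5a, Slit2 and Efnb1 were lower in the DKO-labelled libraries and Nrp2, Nrp1, Slit3, Epha4 and Plxnd1 higher, with no overlap at either time.

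The effect of 1 day without serum differed by genotype label for 7 of 44 members, 2 with a positive and 5 with a negative difference of effects, DKO-labelled minus WT, where 9.72% of all genes were called, 5.36% positive and 4.37% negative. Plxnd1 fell in both, more in WT cells: its log2 fold change after 1 day without serum was -0.56 ± 0.08 (SE) in DKO-labelled and -1.43 ± 0.08 in WT cells, and the difference was 0.86 (adjusted p = 0.000205). Nrp1 rose in WT cells, by 0.51, whereas in DKO-labelled cells its value was 0.03 and did not pass (adjusted p = 0.742), a difference of -0.48 (adjusted p = 0.00425). These 2 differences stayed past the threshold in every fit that left out 1 library. The other 5 did not pass in at least 1 such fit. The count was 2 without DKO-labelled 1-day library 1, 3 without WT serum library 2 or either WT 1-day library, 4 without WT serum library 1, and 13 and 15 without DKO-labelled serum libraries 2 and 1. The proliferation genes Mki67 and Top2a summed to 1627 to 1641 CPM at 1 day and 1870 to 2046 CPM in serum in DKO-labelled cells. In WT cells they summed to 876 to 920 CPM at 1 day and 1652 to 1718 CPM in serum, and their part in these differences was not tested.

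In WT cells 4 days without serum, most guidance genes were higher than in serum. Of 44 members tested 31 were called, 27 higher and 4 lower. Among all 13283 genes 70.9% were called, 36.2% higher and 34.7% lower, and the median log2 fold change was 1.03 for the members and 0.04 over all genes. Higher were 10 of 14 semaphorins, 5 of 6 Eph receptors, 5 of 8 ephrins and 4 of 9 plexins and neuropilins, with 0, 0, 0 and 2 lower. Summed levels of the proliferation genes Mki67 and Top2a were 5.52 to 28.5 CPM at 4 days, against 1115 to 1216 CPM in serum, and the neuron markers summed to 7886 to 10054 CPM at 4 days, against 2764 to 2857 CPM in serum. That sum was higher through Chgb, which averaged 7433 CPM at 4 days and 1149 CPM in serum. Tubb3 and Snap25 also averaged more at 4 days, and Nefm was near 0 in both. In contrast, Nefh averaged 115 CPM at 4 days and 485 CPM in serum, and Dbh 5.69 CPM at 4 days and 54.9 CPM in serum. Phox2a averaged 254 CPM at 4 days and 318 CPM in serum, and Th 0.512 CPM at 4 days and 1.36 CPM in serum. Their part in the guidance genes was not tested.

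The semaphorins that rose at 4 days were Sema3b and Sema3f, which are secreted, and the membrane-bound Sema4b, Sema4c, Sema4g, Sema5a, Sema6a, Sema6b, Sema6c and Sema6d. Sema4g stood at 107, 90.8 and 95.4 CPM at 4 days and 8.55, 6.93 and 11.03 CPM in serum (log2 fold change 3.47, adjusted p = 2.06e-10). Sema4c, a ligand of Plxnb2, stood at 325, 301 and 285 CPM at 4 days and 91.9, 90.9 and 90.9 CPM in serum (log2 fold change 1.74, adjusted p = 2.11e-10). For both, the lowest library at 4 days was far above the highest in serum. Sema6a stood at 88.0, 103 and 100.1 CPM at 4 days and 21.4, 16.7 and 17.7 CPM in serum (log2 fold change 2.39, adjusted p = 5.96e-10). Sema6d stood at 102, 123.2 and 116 CPM at 4 days and 29.3, 31.3 and 33.4 CPM in serum (log2 fold change 1.86, adjusted p = 1.39e-09). Some class A plexins are receptors of class 6 semaphorins. Among the class A plexins tested, Plxna3 rose (log2 fold change 0.83, adjusted p = 6.04e-07). Plxna1 (log2 fold change -0.18, adjusted p = 0.0882) and Plxna4 (log2 fold change 0.30, adjusted p = 0.0545) did not pass.

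The neuropilins moved apart at 4 days. Nrp1 stood at 449, 561 and 540.3 CPM at 4 days and 113, 111 and 123.3 CPM in serum, a log2 fold change of 2.16 ± 0.09 (SE; adjusted p = 1.86e-10). Nrp2 stood at 10.9, 12.0 and 8.49 CPM at 4 days and 22.3, 24.2 and 29.4 CPM in serum, a log2 fold change of -1.28 ± 0.17 (SE; adjusted p = 1.45e-05). No library of one condition overlapped the other for either gene. Plxnd1 fell with Nrp2, to 27.6, 38.2 and 33.6 CPM at 4 days, against 125, 121 and 126 CPM in serum (log2 fold change -1.90, adjusted p = 2.98e-09).

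Slit1 and Slit3 also went opposite ways. Slit1 stood at 72.9, 47.5 and 46.4 CPM at 4 days and 5.40, 3.13 and 3.32 CPM in serum (log2 fold change 3.83, adjusted p = 4.78e-09). Slit3 stood at 64.3, 105 and 124 CPM at 4 days and 213, 212 and 225 CPM in serum (log2 fold change -1.15, adjusted p = 3.29e-05), and Slit2 at 233, 295 and 287 CPM at 4 days and 159, 174 and 168 CPM in serum (log2 fold change 0.70, adjusted p = 1e-05). The spread of Slit3 among the 4-day libraries was wide, but all 3 lay under the serum libraries. Unc5b fell, with 201, 166 and 174 CPM at 4 days and 254, 276 and 295 CPM in serum (log2 fold change -0.61, adjusted p = 2.93e-05), and Unc5a did not pass (log2 fold change 0.11, adjusted p = 0.321). The ligand Ntn1 was higher on very few reads, with 52 over the 3 libraries at 4 days and 3 over those in serum, a ratio of 16.8 after scaling (exact 95% counting interval 5.44 to 84.1).

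In the ephrin system Efna1, Efna3, Efna4, Efna5 and Efnb1 rose, and receptors of both classes with them. Efna3 stood at 37.3, 37.6 and 39.6 CPM at 4 days and 7.32, 5.44 and 6.29 CPM in serum (log2 fold change 2.59, adjusted p = 2.74e-09). Efna4 stood at 12.0, 11.2 and 14.5 CPM at 4 days and 1.78, 2.42 and 2.33 CPM in serum (log2 fold change 2.53, adjusted p = 4e-07). Efna5, a ligand known for its gradient in retinal maps, stood at 58.2, 68.8 and 62.9 CPM at 4 days and 29.3, 25.5 and 24.5 CPM in serum (log2 fold change 1.26, adjusted p = 2.13e-07). Epha10, an Eph receptor that lacks kinase activity, stood at 14.5, 17.8 and 18.8 CPM at 4 days and 1.33, 1.19 and 0.689 CPM in serum (log2 fold change 3.99, adjusted p = 1.18e-08). The 4-day libraries were far above the serum libraries for these genes. Ephb2 stood at 10.7, 14.2 and 11.4 CPM at 4 days and 2.65, 1.90 and 3.66 CPM in serum (log2 fold change 2.15, adjusted p = 6.75e-06). Ephb4 stood at 105, 136 and 133 CPM at 4 days and 61.4, 54.4 and 63.7 CPM in serum (log2 fold change 1.06, adjusted p = 8.05e-07). Both B-class receptors were higher in each 4-day library than in any serum library. Calls that rested on 1 library were those of Efnb1, not past without serum library 1 (0.40 with adjusted p = 0.0861), and of Ephb3, not past without 4-day library 3 (0.86 with adjusted p = 0.0673).

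**Figure D2:**
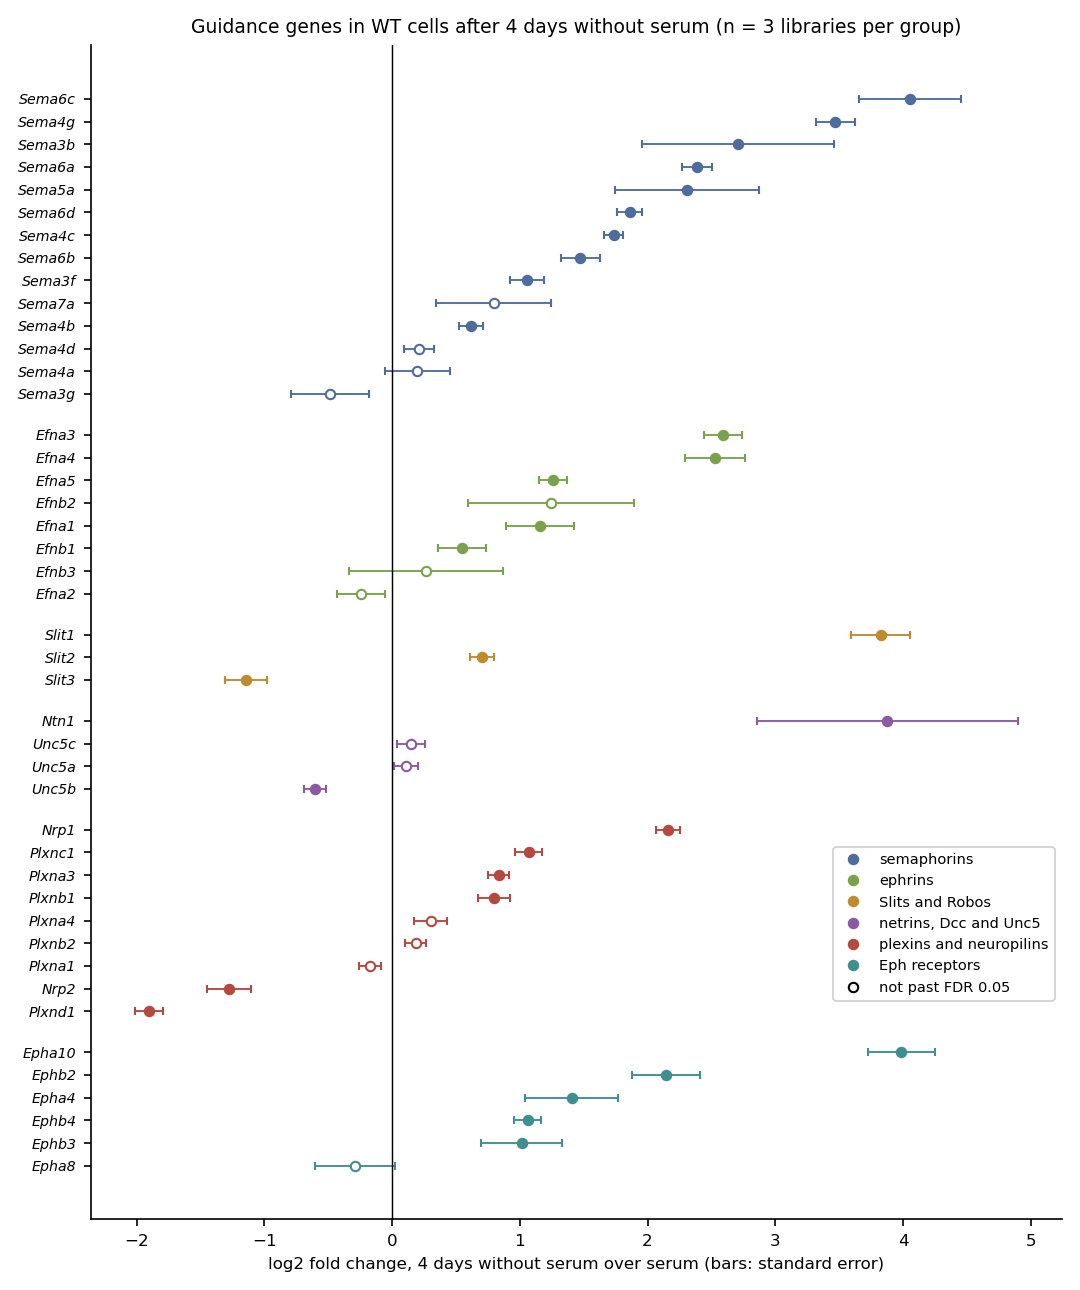
Log2 fold change of the 44 tested members in WT cells, 4 days without serum over serum (x axis; bars are SE, 3 libraries in each group), grouped by family down the page. Filled points passed the test; 27 of them lie right of 0 and 4 left of it, with Sema6c at 4.05 and Plxnd1 at -1.90 at the ends.

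The shorter withdrawals called 19 to 33 members each. At 1 day, 19 of 44 members were called in DKO-labelled cells, 11 higher and 8 lower. There 40.3% of all genes were called, 19.9% higher and 20.4% lower. Of these members, Ephb2 (log2 fold change -1.48, adjusted p = 0.0561) and Slit1 (1.95 with adjusted p = 0.243) did not pass with DESeq2. Both, and Efna3, Efnb1, Plxnb1, Sema3f, Sema6c and Sema6d, also did not pass in some fit with 1 library left out. In WT cells at 1 day 20 of 44 were called, 16 higher and 4 lower, where 40.7% of all genes were called, 20.4% higher and 20.3% lower. This last count was 12 without WT serum library 2 and 13 without WT 1-day library 1. At 2 days in the third experiment, 23 of 43 members were called in cells given the miR-138 mimic, 19 higher and 4 lower (63.3% of all 12655 genes, 31.1% higher and 32.2% lower). With the miR-137 mimic 33 of 43 were called, 29 higher and 4 lower (65.8% of all genes, 33.2% higher and 32.6% lower). With pUC19 27 of 43 were called, 22 higher and 5 lower (59.7% of all genes, 28.4% higher and 31.3% lower).

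Of 41 members tested in all 6 withdrawals, 6 (14.6%) were called the same way in each, where 20.3% of 12136 genes were, 8.82% higher and 11.5% lower. Plxnc1, the plexin that binds Sema7a, rose each time, by 1.40 in DKO-labelled and 1.11 in WT cells at 1 day, 0.94 with the miR-138 mimic, 1.33 with the miR-137 mimic and 1.03 with pUC19 at 2 days, and 1.07 in WT cells at 4 days (log2). Unc5b fell each time, with log2 fold changes of -0.94, -1.24, -0.82, -1.51, -1.51 and -0.61 in the same order. The other 4, all higher, were Sema4c, Sema6a, Sema4g and Sema6d. Sema4g was not past at 1 day in WT cells without serum library 2 (0.50 with adjusted p = 0.19), 1-day library 1 (0.60 with adjusted p = 0.107) or 1-day library 2 (0.72 with adjusted p = 0.0559). Sema6d was not past in WT cells at 1 day without serum library 1 (0.42 with adjusted p = 0.0991), serum library 2 (0.38 with adjusted p = 0.152) or 1-day library 1 (0.26 with adjusted p = 0.274), nor in DKO-labelled cells without 1-day library 2 (0.39 with adjusted p = 0.097).

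**Figure D3:**
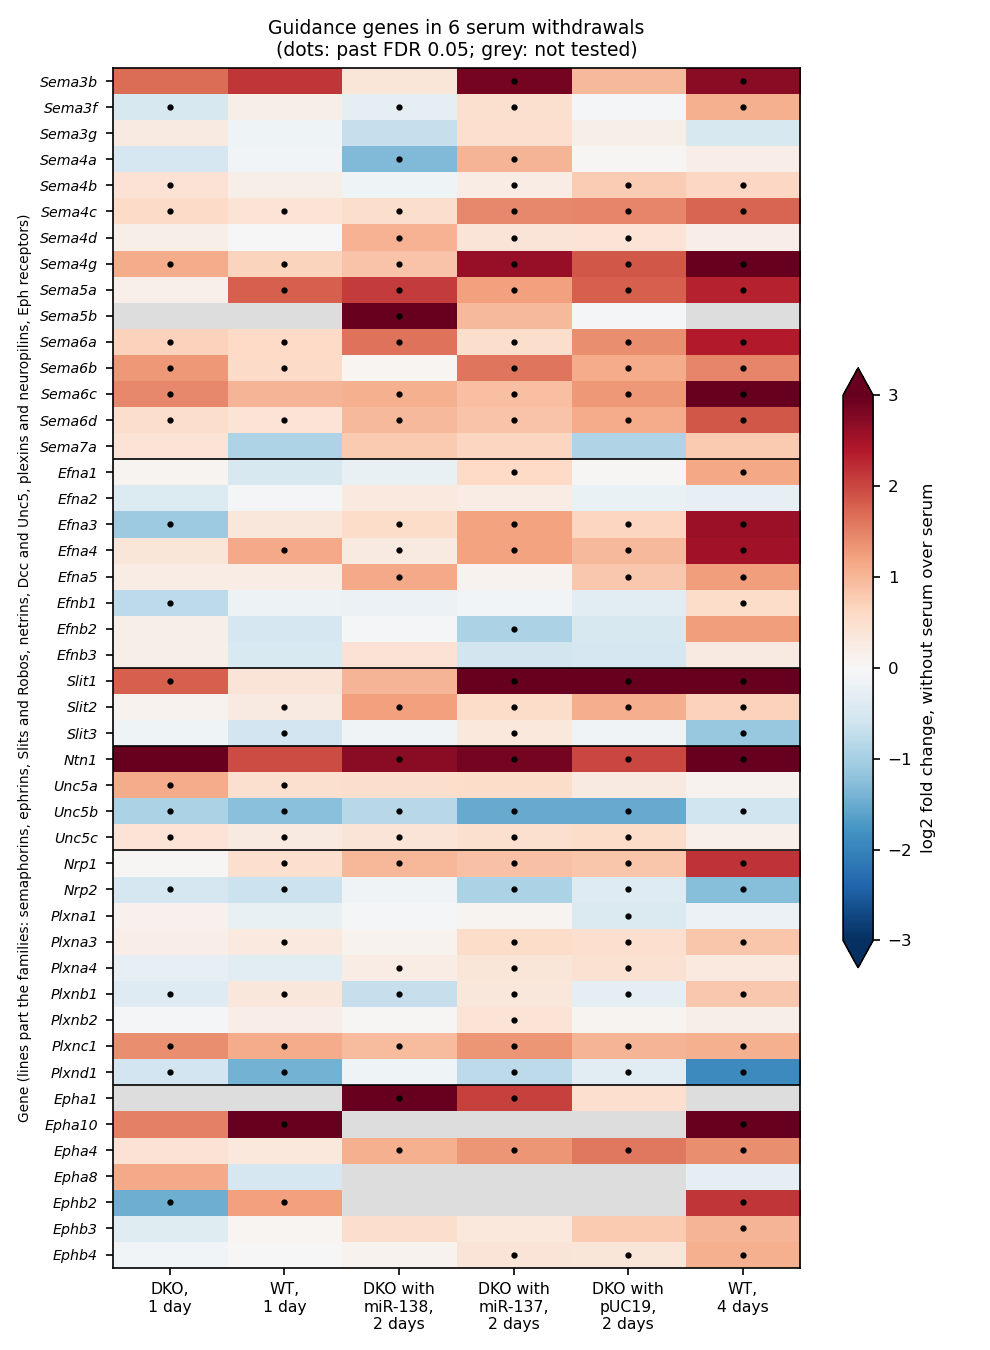
Log2 fold change without serum over serum (color, cut at 3 in both directions) for the members tested in any of 6 withdrawals (rows, by family; columns, DKO-labelled and WT at 1 day, DKO-labelled with each transfection at 2 days, WT at 4 days). Dots mark calls; the rows of Plxnc1, Sema4c, Sema4g, Sema6a and Sema6d are red and dotted throughout, and that of Unc5b is blue and dotted throughout.

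DKO-labelled cells given the miR-138 mimic had much less Plxnb2, the plexin that binds Sema4c and Sema4g, than cells given pUC19, and more Epha4, Slit2 and Plxnc1. Against pUC19 in serum 23 of 43 members were called with the miR-138 mimic, 10 higher and 13 lower, where 56.0% of all genes were called, 28.7% higher and 27.3% lower. At 2 days without serum 31 of 43 were called, 14 higher and 17 lower, where 62.0% of all genes were called, 30.9% higher and 31.1% lower. With the miR-137 mimic 22 of 43 were called in serum, 7 higher and 15 lower (45.6% of all genes, 23.1% higher and 22.5% lower). At 2 days 24 of 43 were called with miR-137, 10 higher and 14 lower (42.7% of all genes, 20.5% higher and 22.2% lower). The mimics share the pUC19 libraries, so their values are set side by side and were compared with each other directly. In that comparison, chosen after the data were seen, 30 of 43 members were called in serum, 14 higher and 16 lower with miR-138 than with miR-137 (63.4% of all genes, 32.7% higher and 30.7% lower). At 2 days 34 of 43 were called, 18 higher and 16 lower (61.6% of all genes, 30.8% in each direction).

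Plxnb2 was lower with the miR-138 mimic than with either pUC19 or the miR-137 mimic. In serum it stood at 103 and 105 CPM with miR-138, 381 and 381 CPM with miR-137 and 338 and 363 CPM with pUC19, and 378 and 389 CPM where no transfection is named. At 2 days it stood at 102 and 112 CPM with miR-138, 527 and 490.3 CPM with miR-137 and 377 and 366 CPM with pUC19. The miR-138 libraries were alone at the low end both times. Against pUC19 the log2 fold change with miR-138 was -1.75 ± 0.06 in serum and -1.80 ± 0.06 at 2 days (SE; adjusted p = 2.64e-14 and 1.22e-14). With miR-137 it was 0.12 in serum, not past the test (adjusted p = 0.0852), and 0.45 (adjusted p = 1.7e-06) at 2 days. Between the mimics the difference was -1.87 in serum and -2.25 at 2 days, miR-138 over miR-137 (adjusted p = 4.4e-15 and 3.84e-16). In the first experiment, Plxnb2 did not pass between DKO-labelled and WT cells, in serum (log2 fold change 0.15, adjusted p = 0.164) or at 1 day (log2 fold change -0.11, adjusted p = 0.287).

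Epha4 and Slit2 were higher with miR-138 and lower with miR-137 than with pUC19. Epha4 in serum stood at 52.5 and 53.0 CPM with miR-138, 8.51 and 8.42 CPM with miR-137 and 14.5 and 13.9 CPM with pUC19. At 2 days it stood at 110.2 and 109 CPM with miR-138, 23.0 and 19.7 CPM with miR-137 and 40.7 and 44.8 CPM with pUC19. Slit2 in serum stood at 163 and 169.8 CPM with miR-138, 63.1 and 65.4 CPM with miR-137 and 100.02 and 102 CPM with pUC19. At 2 days Slit2 reached 412 and 372 CPM with miR-138, 93.0 and 94.1 CPM with miR-137 and 212 and 219.9 CPM with pUC19. At each time the miR-138 libraries were highest, pUC19 next and miR-137 lowest for both genes, without overlap. For Epha4 the log2 fold change against pUC19 was 1.89 (adjusted p = 4.25e-12) with miR-138 and -0.75 (adjusted p = 5.82e-05) with miR-137 in serum. For Slit2 it was 0.72 (adjusted p = 3.62e-09) with miR-138 and -0.65 (adjusted p = 6.92e-08) with miR-137 in serum. Slit2 also differed between pUC19, at 100.02 and 102 CPM, and cells with no transfection named, at 150.02 and 139.9 CPM (log2 fold change -0.52, adjusted p = 2.41e-06). The 2 miR-138 libraries lay above all 4 serum libraries given no mimic, a difference tested against pUC19 alone.

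Plxnc1 had the same order of groups as Epha4 and Slit2, whereas Sema6a had a different pattern. Plxnc1 in serum stood at 121 and 124 CPM with miR-138, 51.2 and 52.8 CPM with miR-137 and 68.6 and 68.8 CPM with pUC19 (log2 fold changes against pUC19 of 0.83 with miR-138, adjusted p = 1.59e-10, and -0.40 with miR-137, adjusted p = 1.41e-05). Cells with no transfection named had 82.0 and 78.7 CPM, and pUC19 was lower than these (log2 fold change -0.23, adjusted p = 0.00531), but not without library 1 named with no transfection (-0.20 with adjusted p = 0.0582). At 2 days it stood at 238 and 232 CPM with miR-138, 130.4 and 131 CPM with miR-137 and 145 and 136 CPM with pUC19, and the miR-137 value did not pass (log2 fold change -0.10, adjusted p = 0.123). Sema6a did not pass with either mimic in serum, at 50.0 and 53.4 CPM with miR-138, 51.5 and 50.3 CPM with miR-137 and 51.8 and 53.4 CPM with pUC19. At 2 days its levels were 159.8 and 159 CPM with miR-138, 75.3 and 72.3 CPM with miR-137 and 141 and 136 CPM with pUC19, with the miR-137 libraries alone at the low end (log2 fold change -0.91, adjusted p = 1.81e-10 with miR-137 against pUC19). Sema6a rose after withdrawal by 1.62 with miR-138, 0.54 with miR-137 and 1.40 with pUC19 (log2), and whether these withdrawal effects differ was not tested.

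Unc5b was lower with miR-138 and Plxnd1 lower with both mimics. Unc5b in serum stood at 235 and 238 CPM with miR-138, 517 and 479 CPM with miR-137 and 517 and 547 CPM with pUC19. Against pUC19 its log2 fold change was -1.17 (adjusted p = 1.93e-12) with miR-138, and -0.10 with miR-137, which did not pass (adjusted p = 0.155). The miR-138 libraries lay far below both pUC19 libraries. Cells with no transfection named, at 399 and 417 CPM, also lay below pUC19 (log2 fold change 0.38, adjusted p = 3.22e-05, pUC19 over no transfection named) and above the miR-138 libraries, a difference that was not tested. Plxnd1 in serum stood at 168 and 162 CPM with miR-138, 153 and 165 CPM with miR-137 and 263 and 276 CPM with pUC19 (log2 fold change -0.71 (adjusted p = 3.74e-09) with miR-138 and -0.76 (adjusted p = 2.67e-09) with miR-137 against pUC19). Between the mimics Plxnd1 did not pass in serum (log2 fold change 0.05, adjusted p = 0.462) and was higher with miR-138 at 2 days (log2 fold change 0.72, adjusted p = 5.71e-09), at 144 and 159 CPM with miR-138 and 92.2 and 91.8 CPM with miR-137. Plxna1 was highest with miR-137 at 2 days, at 246 and 239 CPM with miR-138, 311 and 302 CPM with miR-137 and 177 and 177 CPM with pUC19 (log2 fold change 0.45 (adjusted p = 6.32e-07) and 0.79 (adjusted p = 8.96e-10) against pUC19). Of 9 plexins and neuropilins tested against pUC19 in serum, 1 was higher and 6 lower with miR-138, where 27.3% of all genes were lower, and 2 were higher and 6 lower with miR-137, where 22.5% were lower. With miR-138 the call of Nrp1 (log2 fold change -0.14, adjusted p = 0.039) did not pass without either miR-138 library (-0.17 with adjusted p = 0.0527, and -0.10 with adjusted p = 0.258), without pUC19 library 1 (-0.08 with adjusted p = 0.355), with no low-count filter (-0.14 with adjusted p = 0.0516) or with unstranded counts (-0.13 with adjusted p = 0.0526). That of Plxnb1 (log2 fold change -0.28, adjusted p = 0.0171) did not pass without miR-138 library 1 (-0.25 with adjusted p = 0.0977) or either pUC19 library (-0.27 with adjusted p = 0.0936, and -0.28 with adjusted p = 0.054). With miR-137, Nrp2 and Plxna3 did not pass without miR-137 library 1 (-0.17 with adjusted p = 0.0994, and -0.17 with adjusted p = 0.221). Plxna3 did not pass without pUC19 library 2 either (-0.22 with adjusted p = 0.115).

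Of 15 semaphorins tested in serum, 4 were higher and 2 lower with miR-138 than with pUC19, and 3 were higher and 4 lower with miR-137, where 56.0% of all genes were called with miR-138 and 45.6% with miR-137. The semaphorin counts lay below the share over all genes with miR-138 and near it with miR-137. Sema4c, a ligand of Plxnb2, was higher with both mimics, at 57.1 and 57.3 CPM with miR-138, 70.2 and 62.1 CPM with miR-137 and 33.8 and 38.6 CPM with pUC19 (log2 fold change 0.67 (adjusted p = 5.35e-07) with miR-138 and 0.88, adjusted p = 3.12e-08, with miR-137). Sema4c was also lower with pUC19 than in cells with no transfection named, at 43.9 and 44.7 CPM (log2 fold change -0.30, adjusted p = 0.0102), a call not past without pUC19 library 1 (-0.19 with adjusted p = 0.184). Sema3f and Sema4d, a ligand of Plxnb1, were lower with miR-138. Sema3f stood at 16.8 and 16.1 CPM with miR-138 and 24.9 and 27.3 CPM with pUC19 (log2 fold change -0.66, adjusted p = 3.8e-06). Sema4d stood at 40.4 and 41.4 CPM with miR-138 and 54.2 and 65.6 CPM with pUC19 (log2 fold change -0.54, adjusted p = 1.45e-05). Among ephrins, Efna4 was higher with miR-138, at 14.7 and 14.3 CPM against 9.34 and 8.88 CPM with pUC19 (log2 fold change 0.67, adjusted p = 5.77e-05), and Efna2 lower, at 5.63 and 4.41 CPM against 9.94 and 8.95 CPM (log2 fold change -0.92, adjusted p = 3.17e-05). Efna5 was higher with miR-137 in serum, at 74.9 and 75.3 CPM against 49.3 and 51.0 CPM with pUC19 (log2 fold change 0.58, adjusted p = 6.64e-07), while with miR-138 it did not pass (log2 fold change 0.11, adjusted p = 0.184). For each of these called differences the mimic libraries lay on one side of both pUC19 libraries.

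**Figure D4:**
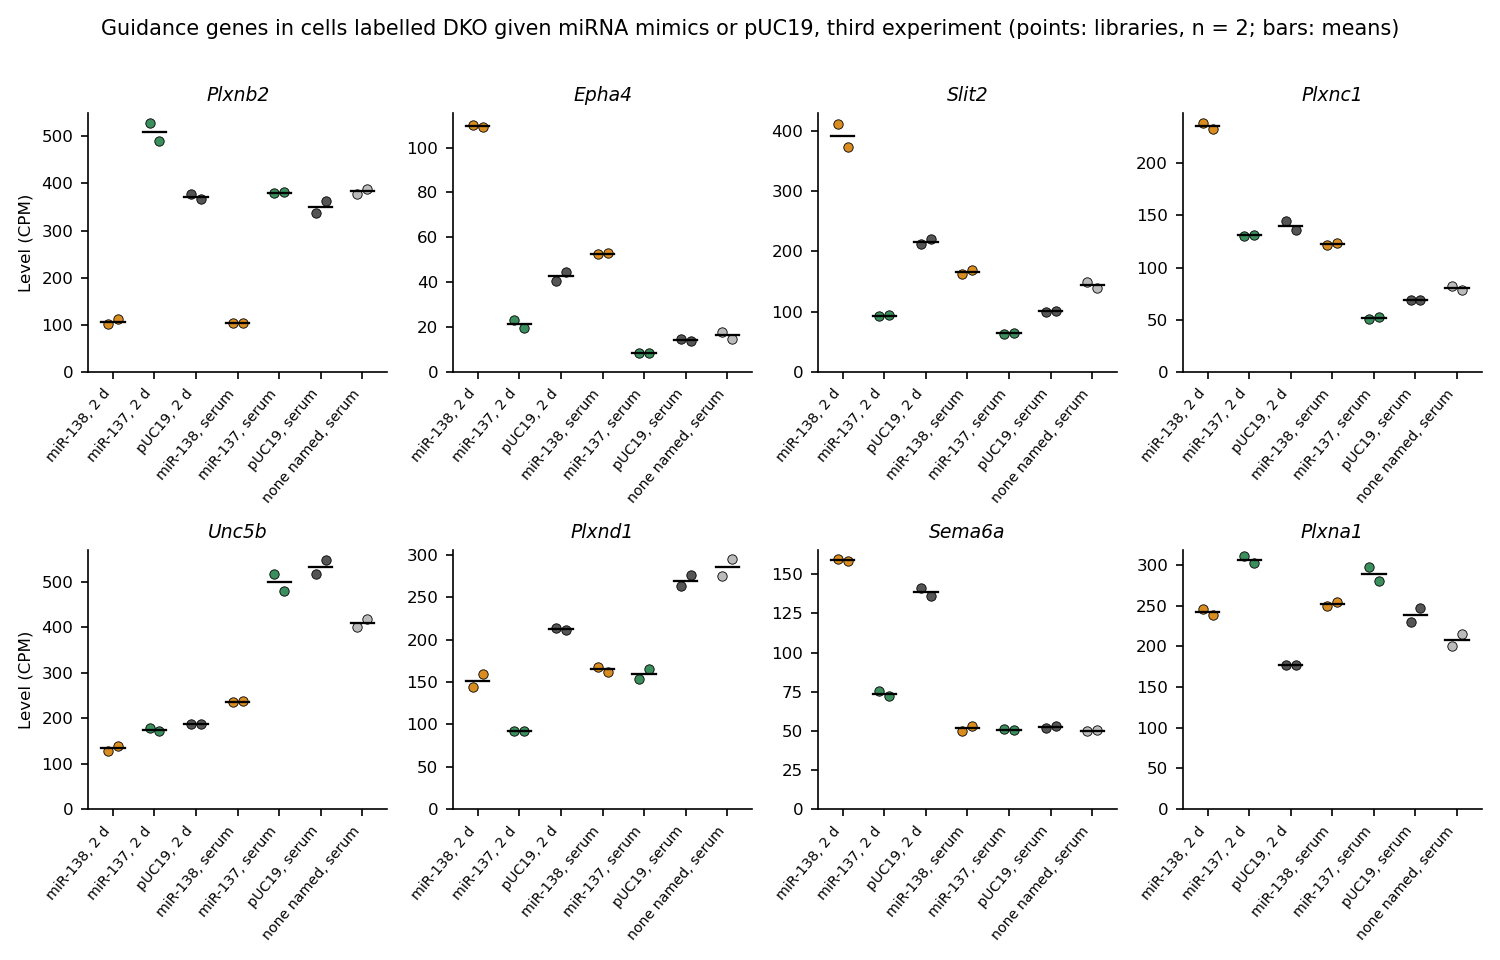
Levels of 8 guidance genes (y axis, CPM from 0) in DKO-labelled cells of the third experiment; points are libraries, 2 in each group, and bars are means, for the miR-138 mimic, the miR-137 mimic and pUC19 at 2 days without serum, then the same 3 and cells with no transfection named in serum. Plxnb2 is low in the 4 miR-138 libraries, at 102 to 112 CPM, and Epha4 and Slit2 are highest there within each time.

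The mimic groups also stood apart in proliferation genes. In serum Mki67 and Top2a summed to 1010 to 1045 CPM with miR-138, 2441 to 2516 CPM with miR-137 and 1952 to 2164 CPM with pUC19. At 2 days they summed to 893 to 1062 CPM with miR-138, 1495 to 1511 CPM with miR-137 and 1383 to 1789 CPM with pUC19, and their part in the guidance genes was not tested. Between pUC19 and cells with no transfection named, 8 of 43 members were called, 3 higher and 5 lower, where 26.2% of all genes were called, 10.7% higher and 15.5% lower.

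Guidance cues and receptors outside the named families, and the proteins that act below the receptors, were described from lists. Of 34 further cues, receptors and adhesion molecules, 29 had at least 10 reads and 27 were tested in the first experiment, of which 4 were higher and 17 lower in DKO-labelled than in WT cells in serum, where 19.2% of all genes were higher and 21.5% lower. Islr2, a leucine-rich repeat membrane protein of neurons, stood at 3.01 ± 0.384 CPM in DKO-labelled and 354 ± 5.35 CPM in WT cells (SD, n = 2 each; log2 fold change -6.86, adjusted p = 1.77e-15 by edgeR's quasi-likelihood test). L1cam, an axonal adhesion molecule that partners neuropilin 1, stood at 12.4 ± 1.92 CPM in DKO-labelled and 272 ± 2.15 CPM in WT cells (log2 fold change -4.44, adjusted p = 1.04e-13). Cdon, a receptor of the Hedgehog pathway, was higher, at 172 ± 21.4 CPM in DKO-labelled and 55.4 ± 1.19 CPM in WT cells (log2 fold change 1.64, adjusted p = 1.76e-08). In WT cells at 4 days 15 of 26 tested were higher and 5 lower (36.2% and 34.7% of all genes), the higher ones including L1cam (log2 fold change 2.18, adjusted p = 2.65e-11) and Neo1, a netrin receptor related to Dcc (log2 fold change 1.06, adjusted p = 3.37e-08). Against pUC19 in serum 6 of 27 were higher and 12 lower with the miR-138 mimic (28.7% and 27.3% of all genes), and 8 were higher and 6 lower with miR-137 (23.1% and 22.5% of all genes), the last close to the share over all genes.

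Of 55 genes acting below the receptors, 51 were tested. In DKO-labelled against WT cells 10 were higher and 18 lower in serum (19.2% and 21.5% of all genes), and 5 higher and 29 lower at 1 day (21.9% and 23.0% of all genes). Crmp1, a collapsin response mediator that relays semaphorin signals, stood at 4.92 ± 1.16 CPM in DKO-labelled and 362 ± 14.9 CPM in WT cells in serum (SD, n = 2 each; log2 fold change -6.17, adjusted p = 1.4e-13), and its relative Dpysl2 at 59.3 ± 3.08 CPM in DKO-labelled and 117 ± 3.54 CPM in WT cells (log2 fold change -0.98, adjusted p = 5.66e-08). In WT cells at 4 days 28 were higher and 11 lower (36.2% and 34.7% of all genes), with Dpysl2 (log2 fold change 1.52, adjusted p = 9.98e-10) and Srgap3, a GTPase-activating protein that binds Robo receptors (log2 fold change 1.76, adjusted p = 8.23e-10), among the higher ones and the actin-severing cofilin Cfl1 (log2 fold change -1.20, adjusted p = 4.34e-09) among the lower. With the miR-138 mimic against pUC19 in serum 7 were higher and 20 lower (28.7% and 27.3% of all genes), among the lower ones the kinase Rock2 (log2 fold change -0.98, adjusted p = 5.24e-11), and with miR-137 20 were higher and 17 lower (23.1% and 22.5% of all genes), among the lower ones the GTPase Cdc42 (log2 fold change -1.33, adjusted p = 1.51e-12).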

How the data were processed

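RNA was measured by strand-specific polyA RNA-seq in 28 libraries of 3 experiments. The authors deposited raw read counts per gene, made with STAR on mm9 per the submitters' processing notes; the sources used here give no tool version and no gene annotation. Column 4 of each count table, the strand of dUTP libraries, was used, after it was checked that column 3 held 3.18 to 3.81% of reads in each library. Reads not assigned to a gene made up 23.3 to 34.2% and were left out. Counts of Efna3, Efna4 and Plxna1 summed to 5319, 6200 and 114681 in column 4 and to 3411, 5545 and 95985 in the unstranded column 2, which drops reads where genes on both strands overlap.

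Each experiment was fitted alone with edgeR 4.0.16 and limma 3.58.1 under R 4.3.3 (filterByExpr, minimum count 10, minimum total 15, TMM scaling, two-sided quasi-likelihood test, Benjamini-Hochberg adjustment over all genes, threshold 0.05), and the procedure was tested on simulated data. Each choice was then changed alone: the tool (DESeq2 1.42.0), the scaling (RLE), the strand (unstranded column), the low-count filter (none), a replicate block, and 1 library left out at a time, where a lone library takes its spread from the other groups. For a group with 1 to 3 reads the ratio has an exact 95% counting interval. Replicates differed by more than sampling noise. The members and lists, and the rule for naming, were chosen with earlier results of these data known. Values per library are given for up to 3 called members of each family by size of change, at a mean of at least 5 CPM, in DKO-labelled against WT cells in serum and in WT cells at 4 days, and for the 8 with the lowest adjusted p in the mimic comparisons; the semaphorins and ephrins of the mimic comparisons, Sema4c at 4 days, Ephb2, Epha8, Slit1, Plxna1, Plxnb2 and Unc5b against WT, and the genes of the outside lists, were singled out after their values were seen. Tables and plots were made in Python 3.11.15 (pandas 2.3.3, matplotlib 3.10.9).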

Additional observations from a re-analysis of the deposited data

Results flagged for a closer look

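For 7 members the effect of 1 day without serum differed between DKO-labelled and WT cells, by edgeR's test of that difference in the first experiment with Benjamini-Hochberg adjustment over all genes. The difference, DKO-labelled minus WT on the log2 scale, was 0.86 for Plxnd1 (adjusted p = 0.000205) and -0.48 for Nrp1 (adjusted p = 0.00425). For Plxnb1 it was -0.73 (adjusted p = 0.0119), with log2 changes of -0.40 in DKO-labelled and 0.33 in WT cells. Without WT serum library 2 it was -0.61 with adjusted p = 0.0798, without WT 1-day library 1 -0.68 with adjusted p = 0.0731, without WT 1-day library 2 -0.74 with adjusted p = 0.0517, and without DKO-labelled 1-day library 1 -0.68 with adjusted p = 0.0609.

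For Ephb2 the difference was -2.68 (adjusted p = 0.0145), with changes of -1.46 in DKO-labelled and 1.22 in WT cells, and serum levels of 0.392 and 0.534 CPM in DKO-labelled libraries. Without WT serum library 1 it was -2.53 with adjusted p = 0.0536, without WT 1-day library 1 -2.52 with adjusted p = 0.0816, and without DKO-labelled 1-day library 1 -2.25 with adjusted p = 0.0749. For Slit3 the difference was 0.45 (adjusted p = 0.0164), with changes of -0.13 in DKO-labelled and -0.57 in WT cells. Without WT serum library 1 it was 0.44 with adjusted p = 0.0791, without WT serum library 2 0.46 with adjusted p = 0.0777, without WT 1-day library 2 0.41 with adjusted p = 0.09, and without DKO-labelled 1-day library 1 0.38 with adjusted p = 0.108.

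For Sema3f the difference was -0.65 (adjusted p = 0.0262), with changes of -0.48 in DKO-labelled and 0.17 in WT cells. Without WT serum library 2 it was -0.55 with adjusted p = 0.15, without WT 1-day library 1 -0.54 with adjusted p = 0.16, without WT 1-day library 2 -0.72 with adjusted p = 0.0546, without DKO-labelled 1-day library 1 -0.72 with adjusted p = 0.0595, and without DKO-labelled 1-day library 2 -0.54 with adjusted p = 0.153. For Efna3 the difference was -1.41 (adjusted p = 0.0366), with changes of -1.08 in DKO-labelled and 0.33 in WT cells. It was -1.51 with adjusted p = 0.0649 with unstranded counts, and -1.18 with adjusted p = 0.182 without WT 1-day library 2. It was also -1.42 with adjusted p = 0.112 and -1.39 with adjusted p = 0.125 without WT serum libraries 1 and 2, -1.57 with adjusted p = 0.0625 without WT 1-day library 1, and -1.06 with adjusted p = 0.149 without DKO-labelled 1-day library 1.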

How the results depend on the processing

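Over 16 comparisons the members gave 385 calls, of which 280 were kept under every alternative, and none of the calls reversed. A call also counted as kept where a fit gave no adjusted p and the direction was the same. Calls not past the threshold numbered 42 with DESeq2, 0 with RLE scaling, 4 with no low-count filter and 7 with unstranded counts, and in 221 fits a called member did not pass with 1 library left out. The count for the difference of withdrawal effects between genotype labels, 7, was 12 with no low-count filter, 6 positive and 6 negative, and 2 to 15 with 1 library left out: 4 and 3 without WT serum libraries 1 and 2, 3 without either WT 1-day library, 15 and 13 without DKO-labelled serum libraries 1 and 2, 2 and 8 without DKO-labelled 1-day libraries 1 and 2. The count for WT cells at 1 day, 20, was 12 to 17. Other counts stayed within 1.5 times. RLE scaling moved no median by 0.1. The causes were not tested.

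Deviations of same-numbered replicates from their group means had correlations of -0.02 to 0.09 over genes, and most were positive. Where a group has 2 libraries, their deviations mirror each other, so each comparison gives 1 value. These values cannot exclude that same-numbered libraries share a culture or batch. With the replicate block the counts were 31 and 25 for DKO-labelled against WT cells in serum and at 1 day, 23 for WT cells at 1 day and 10 for the difference of effects, and 1 call was lost, that of Ephb3 with the miR-138 mimic at 2 days. With 2 libraries per group in the first and the third experiments, genes of low count are measured with little precision.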
